A study of Mus musculus with 6 samples.

Results

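Lysosomes are the acidic compartments in which cells break down proteins, lipids and glycans, and autophagy is the process that wraps cytoplasm in a double membrane and delivers it to them. Transcription of many genes of both systems is controlled by the MiT/TFE family of basic helix-loop-helix factors (TFEB, TFE3 and MITF), which bind an E-box motif and move to the nucleus when the kinase mTORC1 is inactive at the lysosome. In pancreatic ductal adenocarcinoma, autophagy and lysosomal breakdown are known as sources of amino acids for the tumour cells. The genes described here are 35 of the 53379 genes in the deposited count table. They were matched by symbol and comprise 3 MiT/TFE factors, 11 lysosomal enzymes, 2 enzyme cofactors, 4 lysosomal membrane proteins, 3 subunits of the proton pump and 12 genes of the autophagy machinery. All 35 were found, and 34 had enough reads to be tested. Mitf did not.

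Organoids from pancreatic tumours of mice on a C57/Bl6 background were sequenced as 3 lines, with the numbers 6, 23 and 34. Each line gave 1 heterozygous library, with Trp53LSLR172H/+ and Pdx1-Cre, and 1 library with loss of heterozygosity (LOH), with Trp53LSLR172H/- and Pdx1-Cre. All 6 thus carry the Trp53 R172H allele and a Cre driven by the Pdx1 promoter, which is active in pancreatic epithelium, and all were grown in a basement membrane gel in complete organoid medium. In the labels, the description of each LOH sample closes with Nut. What this stands for is not said, and its effect cannot be told apart from that of genotype. The genotype is given here only in part. No label says whether an LOH culture is 1 clone or gives the age of the mice.

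Total counts ran from 13680500 to 27917300 per library, and from 0.235% to 0.325% of them fell on the 35 genes. Trp53, the gene that defines the groups, had 76.3 to 86.5 CPM (counts scaled to library size, with TMM factors) in heterozygous and 47.4 to 73.5 CPM in LOH libraries, and the deposited gene counts do not separate its alleles. Genes of the protein-coding table took 67.9% to 73.3% of the counts in heterozygous and 61.4% to 67.2% in LOH libraries. The 8 epithelial markers, keratins and E-cadherin among them, summed to 4785 to 5597 CPM in heterozygous and 5225 to 9245 CPM in LOH libraries. Macrophages, which are rich in lysosomes, were checked by a list of 10 leukocyte markers. Of these, Adgre1, C1qa, C1qb and Tyrobp had 0 counts in all 6 libraries and Ptprc reached at most 0.264 CPM. The list summed to 46.7 to 48.4 CPM in heterozygous and 34.3 to 72.3 CPM in LOH libraries. Most of this was Cd14 and Mrc1. Cd14 had 43.9 to 47.3 CPM in heterozygous and 19.7 to 40.5 CPM in LOH libraries. Mrc1 had 0.89 to 3.17 CPM in heterozygous and 14.2 to 40.7 CPM in LOH libraries. Mrc1 thus moved with the lysosomal genes below and Cd14 moved the other way. The part of cells with either marker in the values below was not tested. The lists for fibroblasts, endothelium and acinar cells reached at most 0.873, 2.62 and 2.44 CPM in any library.

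Lysosomal genes made up the members that passed the test. In edgeR's quasi-likelihood test of LOH against heterozygous libraries, 4 of the 34 genes had an adjusted p under 0.05 (11.8%), against 5.21% of all 14537 genes tested (3.55% higher and 1.66% lower). All 4 were higher in LOH libraries: Grn, Neu1, Ctsa and Cln3. With these 4 included, 17 of 34 had an unadjusted p under 0.05 with a higher level in LOH libraries, against 14.7% of all genes. None was nominally lower (0 of 34), against 10.6% of all genes. The same 17 genes had all 3 LOH libraries above all 3 heterozygous ones, which held for 16.4% of all genes tested (32.8% did not overlap in either direction), and 1 gene, Atp6v1h, had them all below, which held for 16.5%. The median log2 fold change was 0.51 over the 34 genes and 0.06 over all genes tested. Of the 34 values 27 were above 0, against 54% of all genes tested. In bulk RNA, more cells of a type and more RNA per cell cannot be told apart.

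The calls depended on the design and on single libraries. With the organoid line as a block, 0 of the 34 passed in edgeR, with 14 at an unadjusted p under 0.05, against 1.47% passing (1.22% higher and 0.248% lower) and 20% nominal over all genes. In the test without a block, 0 passed when heterozygous line 6, 23 or 34 was left out, with 11, 15 and 9 of the 34 at an unadjusted p under 0.05. Over all genes these tests also called 0 (0%), with 19.6%, 17.2% and 15% at an unadjusted p under 0.05. Leaving out LOH line 6 gave 9 calls, of which 8 were higher and 1, Gusb, was lower, against 16.2% of all genes (7.5% higher and 8.68% lower). DESeq2 called 12, all higher, against 14.2% of all genes (8.92% higher and 5.31% lower). The p-values measure the spread between these cultures, since no label says that the lines came from different animals.

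**Figure D1:**
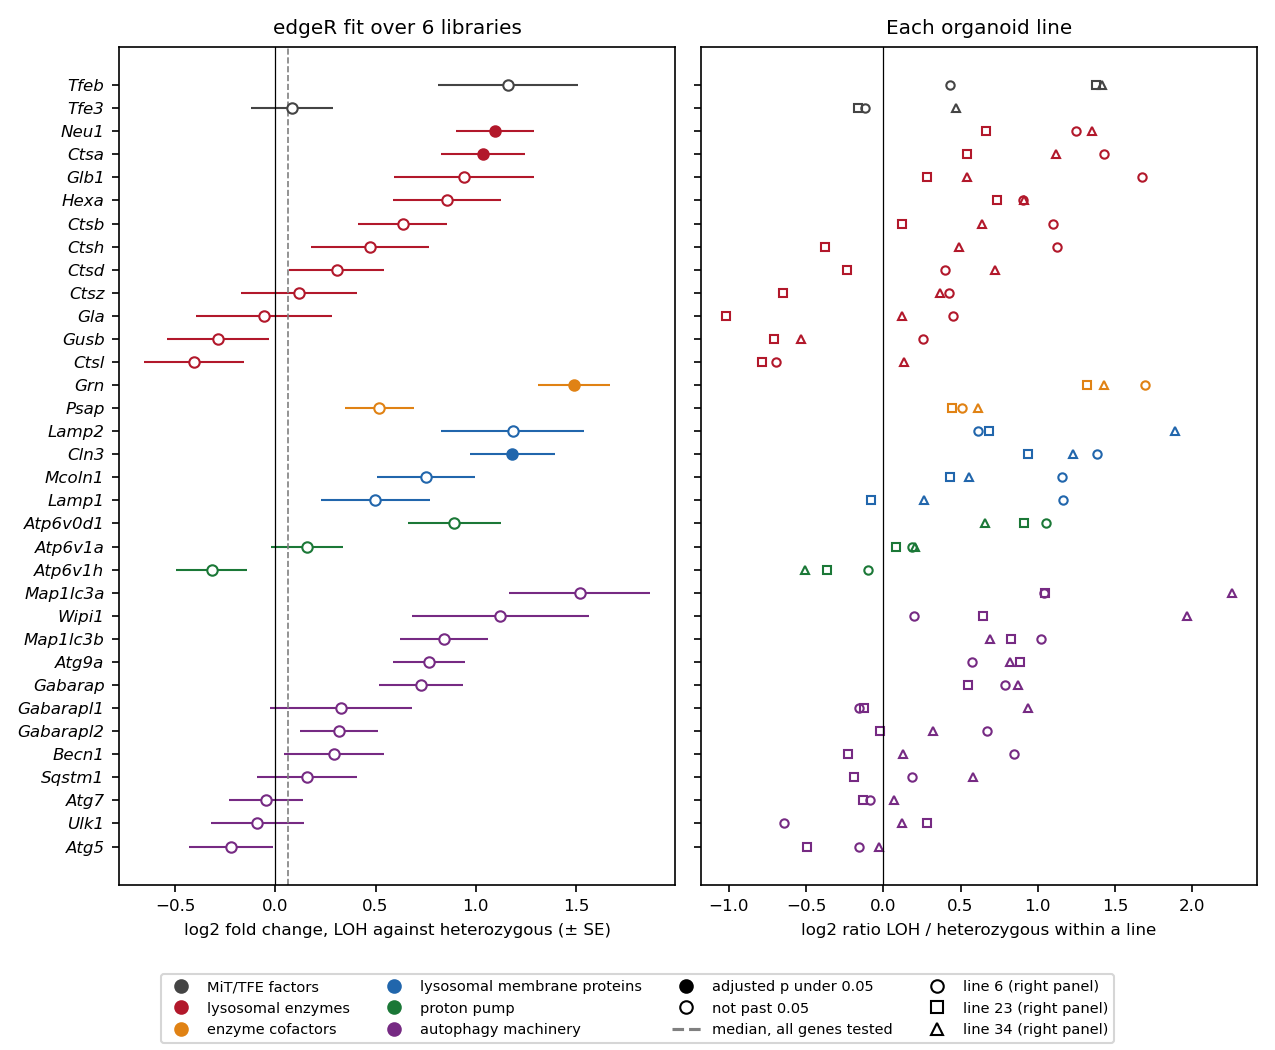
Left, log2 fold change in LOH against heterozygous libraries (points, with SE as bars) of the 34 tested genes by role, with filled points for an adjusted p under 0.05 and a dashed line at the median of all genes tested, 0.06. Right, the log2 ratio within each of the 3 organoid lines. The 4 filled points lie between 1.04 and 1.49, and the enzymes of line 23 sit to the left of those of lines 6 and 34.

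Among the MiT/TFE factors, Tfeb, the best studied activator of lysosome genes, stood at 4.8, 5.64 and 4.17 CPM in heterozygous lines 6, 23 and 34 (the order used throughout) and at 6.52, 14.8 and 11.3 CPM in LOH lines. The groups did not overlap, and the lowest LOH value, that of line 6, was close to the highest heterozygous one. The log2 fold change of 1.16 (SE 0.35) did not pass (adjusted p 0.0966 in edgeR). With the line as a block it was 1.09, with an edgeR adjusted p of 0.18. It was 1.38 without LOH line 6, with an edgeR adjusted p of 0.0236, where 16.2% of all genes passed. Tfe3, which acts on the same motif, had 26.5, 26.8 and 24.7 CPM in heterozygous and 24.4, 23.9 and 34.2 CPM in LOH libraries. These groups overlapped (log2 fold change 0.08, SE 0.2), and the value was -0.11 without LOH line 34. Mitf, known for its role in melanocytes, was barely detected, with 1, 1 and 5 counts in heterozygous and 1, 0 and 2 counts in LOH libraries. Tfec, the remaining family member, had 0 counts in each heterozygous library and 2, 1 and 0 in the LOH libraries. Per transcript length, Tfe3 was the most abundant of the factors, at 10.2 ± 1.1 TPM in heterozygous libraries, against 2.79 ± 0.4 TPM for Tfeb (SD, n = 3 each).

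The motif that these factors bind, known as the CLEAR element, is built on the E-box core CACGTG, which reads the same on both strands. Promoters of RefSeq genes (GRCm38.p6, 250 bases before to 50 bases after the start) were found for 30 of the 35 genes. The core was present in 12 of these 30 (40%), against 8.09% of 27025 genes with a promoter. These 27025 were not limited to genes with enough reads to be tested here. The longer palindrome TCACGTGA, which contains the core, was present in 7 of 30 (23.3%), against 1.13%, and GTCACGTGAC, which contains both, was present in 1, Cln3, against 0.37%. Of a wider list of genes of the same pathways, described below, 107 had a promoter entry. The core was present in 21 of these 107 (19.6%), the longer palindrome in 5 (4.67%) and the longest motif in 1 (0.935%). Genes with several annotated starts were counted once if any promoter held the letters. A match is a description of the sequence and does not show that a factor binds there. The stretches below are those of the 7 genes with the longer palindrome, shown because they include 2 of the 4 genes that passed. Each has 30 bases on the gene's strand, with the longest motif in capitals.
Cln3 (chr7:126583340-126583369, minus strand): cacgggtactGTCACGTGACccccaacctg
Ctsa, first match (chr2:164833749-164833778, plus strand): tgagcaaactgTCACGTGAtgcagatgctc
Ctsa, the next match (chr2:164833766-164833795, plus strand): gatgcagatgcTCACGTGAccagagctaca
Mcoln1 (chr8:3500462-3500491, plus strand): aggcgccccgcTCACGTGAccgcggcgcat
Atp6v0d1 (chr8:105566050-105566079, minus strand): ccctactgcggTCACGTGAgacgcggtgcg
Atp6v1a (chr16:44139373-44139402, minus strand): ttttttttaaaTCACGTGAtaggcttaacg
Ctsd (chr7:142387908-142387937, minus strand): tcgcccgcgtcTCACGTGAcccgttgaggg
Gla (chrX:134601182-134601211, minus strand): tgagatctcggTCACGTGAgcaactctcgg

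The core began 121 bases before the RefSeq start in Cln3, 45 in Mcoln1, 3 in Atp6v0d1 and 131 in Atp6v1a. Lamp1 held it 4 times within its last 61 bases before the start. The stretches shown for Cln3, Ctsa, Mcoln1, Atp6v1a and Ctsd lie inside the gene spans of the GENCODE annotation. The RefSeq starts used for these genes thus lie downstream of the outermost annotated start. Gla held a further palindrome 227 bases before its start. The 12 tested genes with the core had log2 fold changes from -0.4 to 1.18, with a median of 0.4 and 2 calls. The 17 tested genes with a promoter entry and no core had values from -0.29 to 1.49, with a median of 0.73 and 2 calls, Grn and Neu1. With the longer palindrome the medians were 0.75 for the 7 genes that held it and 0.51 for the other 22. The ranges overlapped under either motif.

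Of the 11 lysosomal enzymes, 2 rose, 0 fell and 9 did not pass. Of all genes tested, 3.55% rose and 1.66% fell. Neu1, the sialidase that removes terminal sialic acid from glycoproteins and glycolipids (chromosome 17, 34931253 to 34935953 on the plus strand of GRCm38), stood at 47.7, 58.8 and 49.7 CPM in heterozygous and 113.6, 93.3 and 126.8 CPM in LOH libraries. Every LOH library lay well above every heterozygous one. This was a log2 fold change of 1.1 with an SE of 0.2 (adjusted p 0.0313 in edgeR), a 2.14-fold difference seen in 3 of 3 lines. With the line as a block the edgeR adjusted p was 0.11. Ctsa, the serine carboxypeptidase that binds and protects Neu1 and beta-galactosidase in a complex (chromosome 2, 164832873 to 164841032, plus strand), had 35.3, 46.3 and 37.2 CPM in heterozygous and 95.4, 67.3 and 80.9 CPM in LOH libraries. The groups did not overlap. Its log2 fold change was 1.04 (SE 0.21, adjusted p 0.0412 in edgeR; 0.138 with the block), a 2.05-fold difference, and it did not pass without LOH line 34 (0.0634). The annotation places Neurl2 and Pltp on the opposite strand of Ctsa, at no more than 0.334 and 1.91 CPM in any library.

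Glb1, the beta-galactosidase of the same complex, had 21.5, 24.9 and 21.2 CPM in heterozygous and 68.7, 30.3 and 30.9 CPM in LOH libraries. The groups did not overlap, and LOH line 6 stood above the other LOH libraries. Its log2 fold change of 0.94 (SE 0.35) did not pass (adjusted p 0.15 in edgeR). Hexa, the alpha subunit of beta-hexosaminidase, had a log2 fold change of 0.86 (SE 0.27, adjusted p 0.106 in edgeR), with ratios of 0.9, 0.74 and 0.91 in lines 6, 23 and 34. Ctsb, a cysteine protease, had 152.8 to 194.9 CPM in heterozygous and 211.8 to 327.6 CPM in LOH libraries and a log2 fold change of 0.64 (SE 0.22, adjusted p 0.135 in edgeR).

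The other 6 enzymes had overlapping groups and log2 fold changes from -0.4 to 0.47. They were the proteases Ctsd (0.31), Ctsh (0.47), Ctsl (-0.4) and Ctsz (0.12), the alpha-galactosidase Gla (-0.06) and the beta-glucuronidase Gusb (-0.29). Their LOH libraries were more spread than the heterozygous ones. Ctsh, for example, had 101.8 to 133.5 CPM in heterozygous libraries and 222.1, 102.7 and 161.7 CPM in LOH lines 6, 23 and 34. The median over the 11 enzymes was 0.47, with medians of 0.9, -0.24 and 0.54 in lines 6, 23 and 34. Each line had both signs among the enzymes. The ratios ran from -0.69 for Ctsl to 1.67 for Glb1 in line 6 and from -1.02 for Gla to 0.74 for Hexa in line 23. In line 34 they ran from -0.53 for Gusb to 1.35 for Neu1.

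The 2 cofactors had all LOH libraries above the heterozygous ones, which held for 16.4% of all genes tested. Grn encodes progranulin, a secreted glycoprotein that is cut into granulins in the lysosome (chromosome 11, 102430315 to 102437048, plus strand). Its heterozygous libraries stood at 32.96, 34.6 and 31.9 CPM, and its LOH libraries at 107.0, 86.1 and 86.1 CPM. The heterozygous libraries were close together and every LOH library was far above them. The log2 fold change of 1.49 (SE 0.18) had the smallest p of the 34 genes (adjusted p 0.0164 in edgeR), a 2.81-fold difference seen in 3 of 3 lines. With the block it was 1.48 and did not pass (adjusted p 0.0564 in edgeR), and without heterozygous line 6, 23 or 34 the edgeR adjusted p was 0.107, 0.0951 and 0.108. Its log2 fold change ran from 1.34 to 1.57 over the alternatives that test counts. Fam171a2 lies on the opposite strand of Grn and had overlapping groups, at 4.33 to 20.95 CPM. Psap, the precursor of the saposins that present lipids to lysosomal enzymes, had 150.6, 184.2 and 156.0 CPM in heterozygous and 214.6, 250.9 and 238.1 CPM in LOH libraries. Its log2 fold change of 0.52 (SE 0.17) did not pass (adjusted p 0.118 in edgeR), although all 3 lines had ratios between 0.45 and 0.61.

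**Figure D2:**
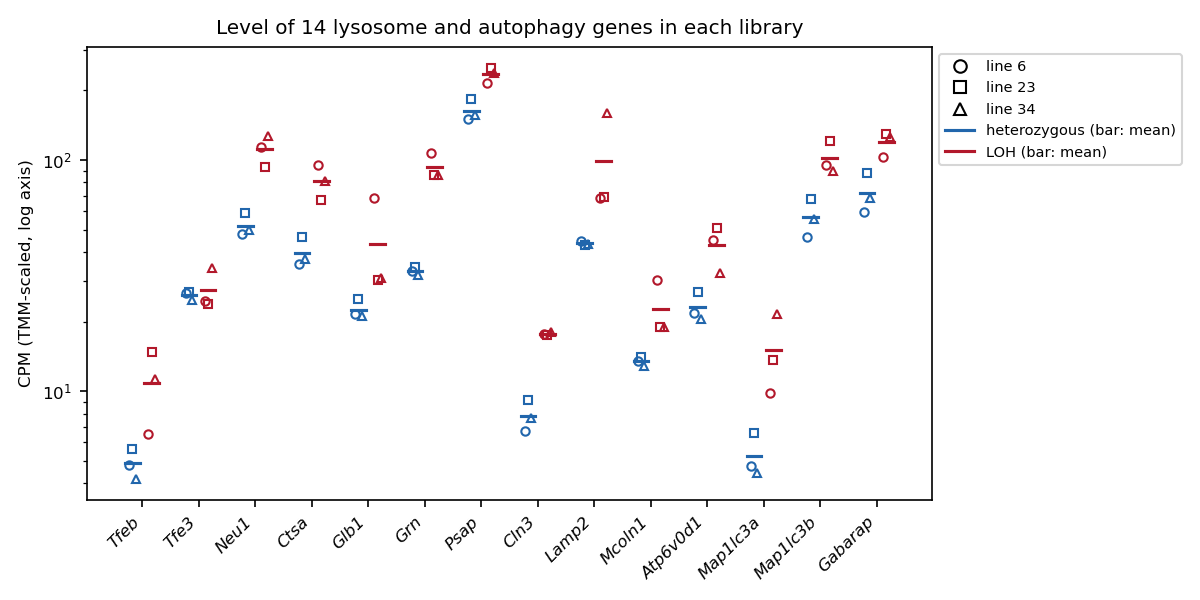
CPM on a log axis of 14 lysosome and autophagy genes in each library (symbols mark the organoid line, bars the group means). The genes were picked for display and most have separate groups, so they do not represent the whole list. Of all 34 tested genes, 17 had all LOH libraries above, 1 had them below and 16 had overlapping groups. Over all genes tested, LOH libraries lay above in 16.4% and below in 16.5%. Grn, Neu1, Ctsa and Cln3 have all LOH libraries above all heterozygous ones, while the libraries of Tfe3 overlap.

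Of the 4 lysosomal membrane proteins, 1 rose, against 3.55% of all genes tested. Cln3, a membrane protein mutated in juvenile Batten disease (chromosome 7, 126571207 to 126585817, minus strand), had 6.71, 9.13 and 7.68 CPM in heterozygous and 17.6, 17.6 and 18.1 CPM in LOH libraries. The LOH libraries were almost equal and all above the heterozygous ones. The log2 fold change was 1.18 (SE 0.21, adjusted p 0.0314 in edgeR; 0.0997 with the block), a 2.27-fold difference, and it did not pass without LOH line 23 (0.0573). The annotation places Apobr on the opposite strand of Cln3, and Apobr itself had 0.501 to 0.901 CPM in heterozygous and 12.7 to 15.2 CPM in LOH libraries. The kit marks strand, but the strand setting of the counting is not given in the sources used here, and the part of Apobr reads in the Cln3 value was not tested. Lamp2, a major glycoprotein of the lysosomal membrane, had 44.8, 42.96 and 43.2 CPM in heterozygous and 68.5, 68.97 and 160.4 CPM in LOH libraries. LOH line 34 stood far above the rest, and the log2 fold change of 1.19 (SE 0.36) did not pass (adjusted p 0.0979 in edgeR). Mcoln1, the TRPML1 channel that releases lysosomal calcium, had a log2 fold change of 0.75 (SE 0.25, adjusted p 0.115 in edgeR). Lamp1, the other major glycoprotein, had 0.5 (SE 0.27, adjusted p 0.294 in edgeR), with 459.4, 247.7 and 274.6 CPM in LOH lines 6, 23 and 34. Of these, LOH line 23 lay inside the heterozygous range of 204.7 to 261.4 CPM.

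None of the 3 subunits of the proton pump, the V-ATPase that acidifies lysosomes, passed in edgeR (0 of 3, with 1 at an unadjusted p under 0.05). The shares over all genes tested were 5.21% and 25.3%. The subunits differed in direction. Atp6v0d1, part of the membrane sector, had 21.8, 26.9 and 20.5 CPM in heterozygous and 45.1, 50.5 and 32.4 CPM in LOH libraries, without overlap. Its log2 fold change was 0.89 (SE 0.23, adjusted p 0.0729 in edgeR; 0.14 with the block). It passed without LOH line 34 (1.05, adjusted p 0.0473 in edgeR) and in DESeq2 (adjusted p 0.0218). Atp6v1a, the catalytic subunit, had 81.6 to 100.8 CPM in heterozygous and 92.7 to 116.4 CPM in LOH libraries (log2 fold change 0.16, SE 0.18). Atp6v1h, a regulatory subunit of the cytosolic sector, had 48.6, 52.2 and 50.04 CPM in heterozygous and 45.3, 40.6 and 35.2 CPM in LOH libraries. All LOH libraries lay below the heterozygous ones, and the log2 fold change of -0.32 (SE 0.18) did not pass (adjusted p 0.306 in edgeR).

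Of the 12 genes of the autophagy machinery, 0 passed in edgeR, against 5.21% of all genes tested. An unadjusted p under 0.05 with a higher level in LOH libraries was seen for 5, against 14.7% of all genes. DESeq2 called 4 of the 12, against 14.2% of all genes (8.92% higher and 5.31% lower). Those 5 genes included 3 of the 5 ubiquitin-like proteins that are attached to lipid on the autophagosome membrane. Map1lc3a, an LC3 paralog, had 4.74, 6.6 and 4.44 CPM in heterozygous and 9.84, 13.704 and 21.5 CPM in LOH libraries. The groups did not overlap and LOH line 34 was the highest. The log2 fold change of 1.52 (SE 0.35) was the highest of the 34 and did not pass (adjusted p 0.0557 in edgeR; 0.128 with the block). It passed with no filter on low counts (1.48, adjusted p 0.0421 in edgeR). It also passed without LOH line 6 (1.71, 0.0226), where 16.2% of all genes passed. Map1lc3b, the LC3 protein used most as an autophagosome marker, had 46.6, 67.96 and 55.6 CPM in heterozygous and 94.8, 120.3 and 89.5 CPM in LOH libraries, a log2 fold change of 0.84 (SE 0.22, adjusted p 0.0717 in edgeR). Gabarap had 59.8 to 88.1 CPM in heterozygous and 103.1 to 128.9 CPM in LOH libraries (0.73, SE 0.21, adjusted p 0.0907 in edgeR). Its paralogs Gabarapl1 and Gabarapl2 had overlapping groups and log2 fold changes of 0.33 and 0.32. RSEM divides ambiguous reads between paralogs, so values within this family are less certain. Map1lc3b also shares its locus and strand with the annotated gene Gm20388.

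The remaining genes act in the steps that build the autophagosome. Atg9a, the membrane protein of the vesicles that seed it, had 26.8, 26.9 and 23.7 CPM in heterozygous and 40.1, 49.7 and 41.8 CPM in LOH libraries, without overlap (log2 fold change 0.76, SE 0.18, adjusted p 0.0577 in edgeR). The annotated gene Gm29253 shares the locus and strand of Atg9a, so this value is less certain. Wipi1, which binds phosphoinositides on the forming membrane, had 9.94, 8.38 and 8.78 CPM in heterozygous and 11.4, 13.1 and 34.6 CPM in LOH libraries. Its log2 fold change of 1.12 (SE 0.44, adjusted p 0.169 in edgeR) rested largely on LOH line 34, with ratios of 0.2, 0.64 and 1.97 in lines 6, 23 and 34. The initiating kinase Ulk1 (-0.09), the PI3-kinase subunit Becn1 (0.29) and the conjugation factors Atg5 (-0.22) and Atg7 (-0.05) had overlapping groups. So did Sqstm1, the cargo receptor p62, at 114.6, 184.4 and 111.5 CPM in heterozygous and 130.3, 161.3 and 166.7 CPM in LOH libraries (log2 fold change 0.16, SE 0.25). Nfe2l2, a factor known to activate Sqstm1, was named after its values were seen and was at 342.5 to 356.4 CPM in heterozygous and 83.4 to 105.8 CPM in LOH libraries.

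**Figure D3:**
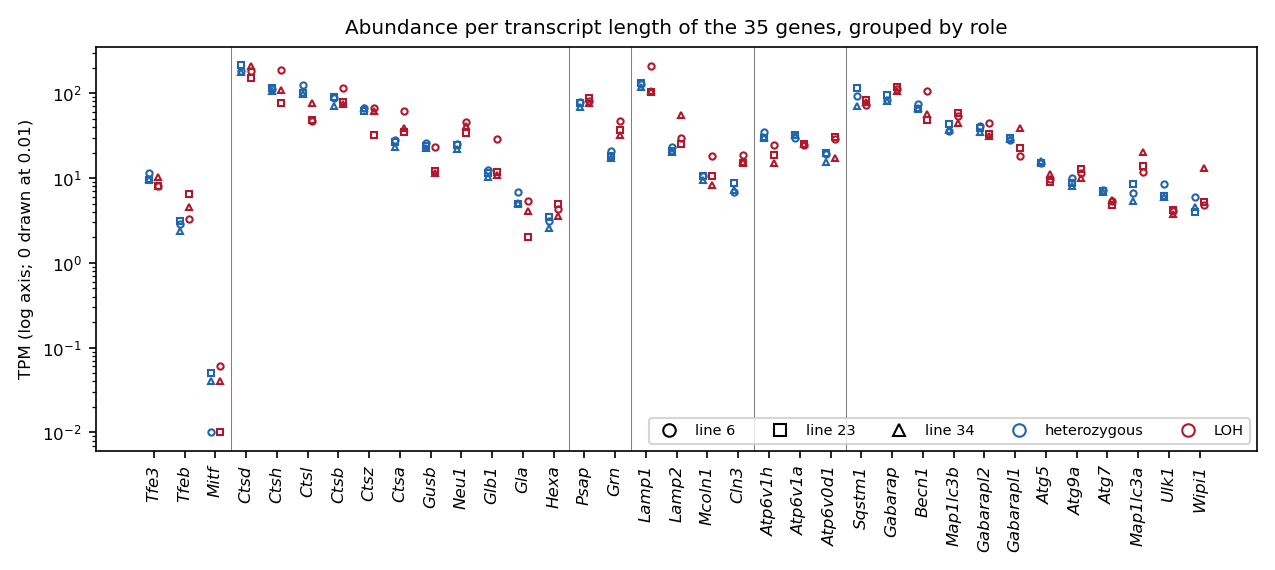
TPM on a log axis of the 35 genes in each library, ordered within each role by the mean of the heterozygous libraries. Ctsd is the most abundant and Mitf lies far below the rest.

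Levels were compared between genes in TPM, which accounts for transcript length. In heterozygous libraries the most abundant of the 35 was Ctsd, at 192.0 ± 18.8 TPM, followed by Lamp1 at 126.2 ± 5.69, Ctsh at 111.7 ± 5.47, Ctsl at 107.1 ± 14.6 and Sqstm1 at 92.4 ± 22.0 TPM (SD, n = 3 each). The last 3 of these lay within their spread of each other. Mitf was the lowest, at 0.033 TPM, and Tfeb the next lowest. In LOH libraries Ctsd had 180.9 ± 31.2 TPM, Lamp1 139.5 ± 61.0 and Ctsl 56.98 ± 16.5 TPM (SD, n = 3 each). On the TPM scale the whole table shifted. The median log2 fold change of all genes was -0.35 with limma on log2(TPM + 1), and that of the 34 genes was 0.08, so their distance from the median of all genes was 0.43, against 0.45 in the count test. By this scale 27 of the 34 lay above the median of all genes, as many as in the count test, and 5 of 34 passed in limma, a share near the 16% of all genes (2.35% higher and 13.7% lower). Of these, Grn, Neu1, Cln3 and Map1lc3a were higher and Ctsl was lower. The split of calls over all genes also turned, from 68.2% higher among 757 calls in the count test to 14.7% higher among 1911 calls.

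Transcript choice was examined for Tfeb, Tfe3, Mitf, Lamp2 and Sqstm1. The ground was that Mitf and Lamp2 are known to have alternative first or last exons. Shares were compared where every library had at least 20 counts, which left out Mitf. The most abundant transcript of Tfeb took 60.3% ± 7.21 of the gene's TPM in heterozygous and 61.4% ± 9.49 in LOH libraries (SD, n = 3 each). The share was 32.5% ± 7.74 and 31.8% ± 7.76 for that of Tfe3, and 77.1% ± 3.56 and 77.7% ± 1.72 for that of Sqstm1 (SD, n = 3 each). The leading pair of Lamp2 transcripts, whose 3′ ends differ, took 60.96% ± 10.6 and 37.0% ± 9.59 in heterozygous and 62.7% ± 6.41 and 35.01% ± 5.64 in LOH libraries (SD, n = 3 each). The shares of the leading transcripts of these 4 genes differed by less than their spread, with exact two-sided permutation p-values from 0.8 to 1 (all 1 after adjustment), in a design that cannot go below 0.1.

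A wider list of 134 genes of the same pathways was tested in the same fit. Of the 126 with enough reads, 7 passed (5.56%, near the 5.21% of all genes), 5 higher and 2 lower in LOH libraries. With the block 0 passed in edgeR, with 28 of 126 at an unadjusted p under 0.05, near the 20% of all genes. DESeq2 called 20 of 126, near its 14.2% of all genes. The median log2 fold change was 0.33, and 92 of 126 were above 0. Over all genes tested the median was 0.06, and 54% were above 0. The higher genes included further enzymes. Galns, the sulfatase that starts keratan sulfate breakdown, rose from 9.85 ± 2.0 to 25.3 ± 7.24 CPM (SD, n = 3 each; log2 fold change 1.37, adjusted p 0.0423 in edgeR). Galns shares its locus with the annotated genes Gm45857 and Gm20388, so its value is less certain. Asah1, acid ceramidase, rose from 137.2 ± 4.35 to 241.6 ± 31.2 CPM (SD, n = 3 each; 0.82, adjusted p 0.0443 in edgeR).

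Tcirg1, an a subunit of the proton pump, rose from 21.2 ± 0.63 to 39.9 ± 7.96 CPM (SD, n = 3 each; log2 fold change 0.91, adjusted p 0.0499 in edgeR). Atg2a, a lipid transfer protein of the growing autophagosome, rose from 25.4 ± 3.72 to 51.5 ± 7.28 CPM (SD, n = 3 each; 1.02, adjusted p 0.039 in edgeR). The 2 lower genes were Atp6v0e2, a small subunit of the pump, and Gnptab, which makes the mannose 6-phosphate tag that sends enzymes to lysosomes. Atp6v0e2 fell from 12.5 ± 0.76 to 3.99 ± 1.29 CPM (SD, n = 3 each; -1.64, adjusted p 0.0313 in edgeR), and Gnptab fell from 74.8 ± 1.72 to 39.4 ± 5.44 CPM (SD, n = 3 each; -0.93, adjusted p 0.0367 in edgeR). All 7 had LOH libraries that did not overlap the heterozygous ones, which held for 32.8% of all genes tested. The 7 were picked by a test on the same libraries, so this adds no support to the calls.

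By role, 13 of 31 further enzymes and cofactors had an unadjusted p under 0.05 with a higher level in LOH libraries, and 0 a lower one, with a median log2 fold change of 0.51. Of 17 further pump subunits 4 were nominally higher and 1 lower, with a median of 0.28. Of 39 further autophagy genes 11 were nominally higher and 1 lower (0.29), and of 23 further membrane, transport and delivery proteins 5 and 1 (0.23). The 16 genes of MiT/TFE control had 3 and 2, with a median of 0.04. The shares nominally higher among all genes tested were 14.7%, and 10.6% nominally lower.

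**Figure D4:**
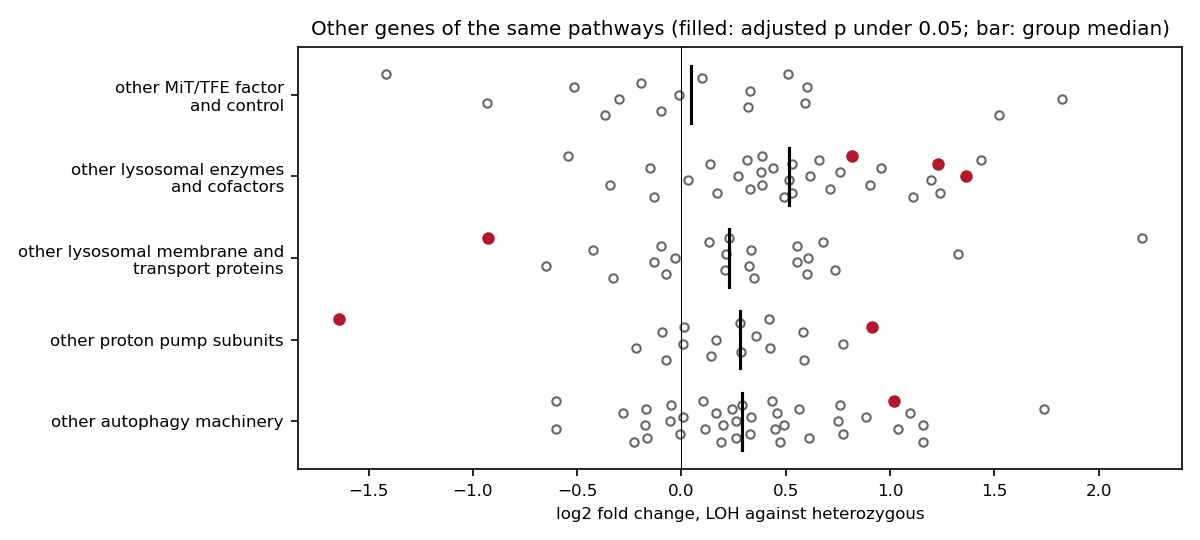
Log2 fold change in LOH against heterozygous libraries of 126 further lysosome, proton pump, autophagy and MiT/TFE control genes (1 point a gene, spread vertically for legibility only). Filled points passed an adjusted p of 0.05, and the bars mark medians, from 0.04 for MiT/TFE control to 0.51 for enzymes and cofactors.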

How the data were processed

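Total RNA of 6 organoid cultures was made into stranded libraries, per the labels' protocols. The submitters' processing notes name FastQC 0.11.5, STAR 2.5.2b, RSEM 1.3.0, DESeq2 1.44.0 and the build GRCm38.p5. Strand setting and read filters are not given in the sources used here. The authors deposited expected counts per gene and per transcript (RSEM estimates, which need not be whole) and TPM. The deposited normalized tables hold a signal, expected counts over a size factor, and served only to name genes and to define protein-coding genes.

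Expected counts were rounded. Genes passing filterByExpr (14537) were scaled by TMM and tested with edgeR 4.0.16 (R 4.3.3), with two-sided p-values adjusted by Benjamini-Hochberg over all genes and a threshold of 0.05. SE is the log2 fold change over the square root of F. DESeq2 1.42.0 and limma 3.58.1 on log2(TPM + 1) and log2(TPM + 0.1), for genes with at least 1 TPM in 3 libraries, were alternatives. The scripts were tested on simulated data. A count of 3 equalled 0.1 to 0.223 CPM, which covers counting error only. Coordinates came from GENCODE M21 (GRCm38). They place annotated genes on the same strand at the loci of Ctsd, Ctsl, Glb1, Cln3, Atg5, Atg7 and Gabarapl1 too. The part of such genes in the values was not tested.

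By title, a number marks 1 organoid line, so equal numbers pair libraries. Same-line deviations from group means correlated at -0.3, 0.01 and 0.29 across genes in lines 6, 23 and 34. Those of unlike lines correlated at -0.387 to 0.296. The unblocked test was chosen as the main one, since no label states a paired model, although the titles pair the libraries. It called 4 of the 34 genes, and edgeR with the block called 0.

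Named in full were the MiT/TFE factors, the genes that passed with or without the block, and the gene with the smallest p in each role. Of the wider list, those that passed were named, except for an item that is not reported here, and genes named beyond this rule are given with values only. The members and lists were chosen with earlier results of these data known.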

Additional observations from a re-analysis of the deposited data

Results flagged for a closer look

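In these results the log2 ratios of the organoid lines had both signs. With 1 library of each genotype in a line, the differences between lines were not tested, and none of the genes passed 0.05 in the main test. The distance between the highest and lowest log2 ratio of the 3 lines was 1.14 for the median of the lysosomal enzymes, which was -0.24 in line 23 and 0.9 and 0.54 in lines 6 and 34. Among single enzymes it was 1.5 for Ctsh, 1.47 for Gla, 1.07 for Ctsz, 0.96 for Ctsd, 0.96 for Gusb and 0.92 for Ctsl. In each of these 6, line 23 had the lowest ratio. For Lamp1 the distance was 1.24, from -0.08 in line 23 to 1.17 in line 6. In the autophagy machinery it was 1.09 for Gabarapl1, 1.07 for Becn1, 0.93 for Ulk1, 0.77 for Sqstm1, 0.7 for Gabarapl2 and 0.2 for Atg7. Ulk1 was lowest in line 6 (-0.64), and Gabarapl1 was highest in line 34 (0.94). For Tfe3 the distance was 0.63, with ratios of -0.12, -0.16 and 0.47 in lines 6, 23 and 34.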

How the results depend on the processing

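The main test called 4 of the 34 genes, 7 of the wider list and 757 of all genes. With the replicate block edgeR called 0, 0 and 213, with 14 and 28 of the first 2 lists at an unadjusted p under 0.05. Leaving out 1 library in turn gave 0 to 9, 0 to 20 and 0 to 2449. Without both libraries of line 23 or of line 34 edgeR called 0, 0 and 0, with 15 and 9 of the 34 genes at an unadjusted p under 0.05, against 15.2% and 14.6% of all genes. Without line 6 it called 1 gene, Grn, and 1422 of all genes. DESeq2 called 12, 20 and 2266. Limma called 1911 of all genes on log2(TPM + 1) and 1753 on log2(TPM + 0.1), with medians of the 34 genes of 0.0797 and 0.0801. Otherwise the counts stayed within 1.5 times, and the median within its spread over lines, under RLE scaling, other filters and the protein-coding table. The causes were not tested. Of 578 values of single genes under alternatives, 497 kept direction and side of the threshold, 31 changed sign, 19 newly passed and 31 no longer passed. The last were all values of the 4 called genes (10 of Ctsa, 8 of Cln3, 7 of Neu1 and 6 of Grn).

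Signs turned for genes that did not pass in the main test. Leaving out 1 library in turn gave log2 fold changes of -0.11 to 0.17 for Tfe3, -0.097 to 0.38 for Ctsz, -0.021 to 0.47 for Becn1, -0.16 to 0.55 for Gabarapl1, -0.32 to 0.24 for Gla and -0.19 to 0.065 for Ulk1. Without both libraries of line 6, Ctsz had -0.069, Becn1 -0.0697 and Ulk1 0.18. Without line 23, Gla had 0.29. Without line 34, Tfe3 had -0.14, Ctsz -0.046, Gabarapl1 -0.14 and Sqstm1 -0.038. On log2(TPM + 1), where the median of all genes was -0.35, Tfe3 had -0.205, Ctsd -0.096, Ctsz -0.33, Atp6v1a -0.31, Becn1 -0.064, Gabarapl1 -0.18, Gabarapl2 -0.077 and Sqstm1 -0.21. On log2(TPM + 0.1), where it was -0.42, the same 8 genes had -0.22, -0.096, -0.34, -0.32, -0.066, -0.19, -0.079 and -0.21. The share of the leading Tfe3 transcript differed by -0.7 percentage points by TPM and by 1.77 by expected counts.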

Other observations

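The Rag GTPases, which sit on the lysosome and recruit both mTORC1 and the MiT/TFE factors, were looked at after their values had been seen. Rraga stood at 28.8 ± 3.0 CPM with heterozygous Trp53 and at 15.1 ± 3.19 CPM with LOH (SD, n = 3 each; log2 fold change -0.93, adjusted p 0.0581 in edgeR). Rragc stood at 47.9 ± 4.73 and 33.6 ± 3.83 CPM (SD, n = 3 each; -0.51, adjusted p 0.139 in edgeR), and Rragb at 1.49 ± 0.22 and 0.57 ± 0.52 CPM (SD, n = 3 each; -1.42, adjusted p 0.227 in edgeR). In these 3 genes all LOH libraries lay below the heterozygous ones, which held for 16.5% of all genes tested. Of the 16 tested genes of MiT/TFE control they are the 3 with this pattern, a share near that of all genes. All LOH libraries lay above in 5 of the 16 (31.25%), against 16.4% of all genes. Rragb rested on few reads, with 20, 8 and 5 counts in LOH lines 6, 23 and 34. Rragd stood at 0.74 ± 0.21 and 2.6 ± 2.33 CPM (SD, n = 3 each; 1.82, adjusted p 0.157 in edgeR), with the LOH libraries above. Folliculin and its partners act on Rragc and Rragd. Flcn and Fnip2 had log2 fold changes of 0.59 and 0.6 (adjusted p 0.17 and 0.113 in edgeR). Fnip1 had 1.52 (adjusted p 0.199 in edgeR) with overlapping groups and ratios of -1.11, 2.27 and 2.54 in lines 6, 23 and 34. None of these 7 genes passed in edgeR, and Fnip1 was the one whose sign differed between lines.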
